A study of Mus musculus with 21 samples.

Results

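Microglia from the striatum of adult offspring of dams with maternal immune activation (MIA) were compared with microglia from control offspring, all taken after a challenge with lipopolysaccharide (LPS). The comparison held 8 of the 21 libraries in the series, 5 control LPS and 3 MIA LPS libraries of batch 1, chosen by their labels for maternal group, treatment and batch and not by any measured value. MIA LPS replicate 4 was the only library of batch 2 and its values are given apart. All mice were males of 8 to 10 weeks, and cells were collected 18 hours after intraperitoneal LPS at 4500 endotoxin units per gram of body weight. Sorted cells were live, CD11b+, CD45-low and P2RY12+, so a cell that had lost surface P2RY12 would not be in these libraries. Saline libraries of control (6) and MIA (5) offspring entered the same fit, and 1 MIA saline library that the submitters titled excluded did not. Not given in the sources used here are the mouse strain, the litters, and the agent and day of the maternal challenge. The ID label carries a second number that differed in each of the 8 libraries, but its meaning is not stated there. Of the 8, 7 share it with at least 1 saline library of the fit, which no test took into account. The p-values speak only of the spread among the libraries, some of which may share a litter.

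Microglia are the resident macrophages of the brain. In the resting state they hold a set of surface receptors and transcription factors, among them P2RY12, TMEM119, CX3CR1 and SALL1, that is known as their homeostatic signature. LPS, a component of the outer membrane of Gram-negative bacteria, is sensed through CD14, MD-2 and Toll-like receptor 4 (TLR4), which signal through MyD88 to NF-kB and through TRIF to interferon genes. The series title names blunted microglial reactivity after prenatal immune stress, and the comparison addresses whether challenged cells differed by maternal group.

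Total counts were 9.85 to 18.1 M (M, counts in units of 1e+06) in the control LPS libraries, 13.0 to 17.1 M in the batch 1 MIA LPS libraries and 11.4 M in the batch 2 library. Ribosomal RNA took 49.3 to 55.1% of the counts in the 8 libraries. MIA LPS replicate 2 stood apart. On the first principal component of the 8 libraries, which held 29.5% of the variance, it lay at 86.8 and the other 7 between -27.6 and 8.13. It was the highest of the 8 libraries at 23.7% of the tested genes and the lowest at 25.1%, against at most 13.8% and 12.6% for any other library. Differences after LPS of single genes and list medians are therefore given with it and, in a fit without it, marked "without MIA 2". No 2 libraries of a group agreed within sampling noise, with a chi-square over degrees of freedom of at least 11.96 in every pair.

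Microglial markers far exceeded those of other cell types in every library. Summed levels of 10 defining microglial markers were 5219.6 to 6786 CPM in the control libraries and 6419.6, 4740.5 and 4683 CPM in the MIA libraries, in counts per 1e+06 counts of the library total (CPM), and no marker was at 0. The values of MIA replicates 2 and 3 lay below every control library. After TMM scaling, a correction for library composition, only that of replicate 2 did (4565 CPM against 5112 to 6662 CPM in controls). The TMM-scaled value of replicate 1 lay above every control, at 7052 CPM. No marker was called. Astrocyte markers summed to 112 to 147 CPM in the control libraries and 119, 239 and 121 CPM in the MIA libraries, and oligodendrocyte markers to 31.1 to 54.2 CPM in the control libraries and 39.3, 96.5 and 50.6 CPM in the MIA libraries. MIA LPS replicate 2 was thus the highest library for both lists. Without it the median log2 difference of the 8 measured astrocyte markers went from 0.34 to 0.09 and that of the 7 oligodendrocyte markers from 0.45 to 0.31. Monocyte markers summed to 46.8 to 82.8 CPM in the control libraries and 59.4, 40.8 and 56.0 CPM in the MIA libraries, and 8 of 9 had a lower mean in MIA, with a median log2 difference of -0.37 (-0.58 without replicate 2). Border-associated macrophage markers summed to 18.7 to 46.9 CPM in the control libraries and 16.8, 12.4 and 31.6 CPM in the MIA libraries. Of 7 measured, 1 was above 0, with a median log2 difference of -0.52 (-0.25 without MIA replicate 2). Without control LPS replicate 3 that median was -0.11. Neutrophil markers summed to 127 to 182 CPM in the control libraries and 184, 110 and 88.9 CPM in the MIA libraries. MIA replicate 1 thus lay above and replicates 2 and 3 below every control, also after TMM scaling (202, 106 and 100 CPM against 114 to 178 CPM). Their median log2 difference was 0.01 with and without replicate 2. Of 13 lymphocyte markers, 6, among them Cd3e, Cd3g and Trac, had no count in any of the 8 libraries. The astrocyte (10), oligodendrocyte (11), monocyte (9) and border-associated macrophage (8) lists each held no marker at 0 in all 8 libraries. The part of these cells in the differences below was not tested. In bulk samples, fewer cells of a type and less RNA per cell cannot be told apart.

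**Figure D1:**
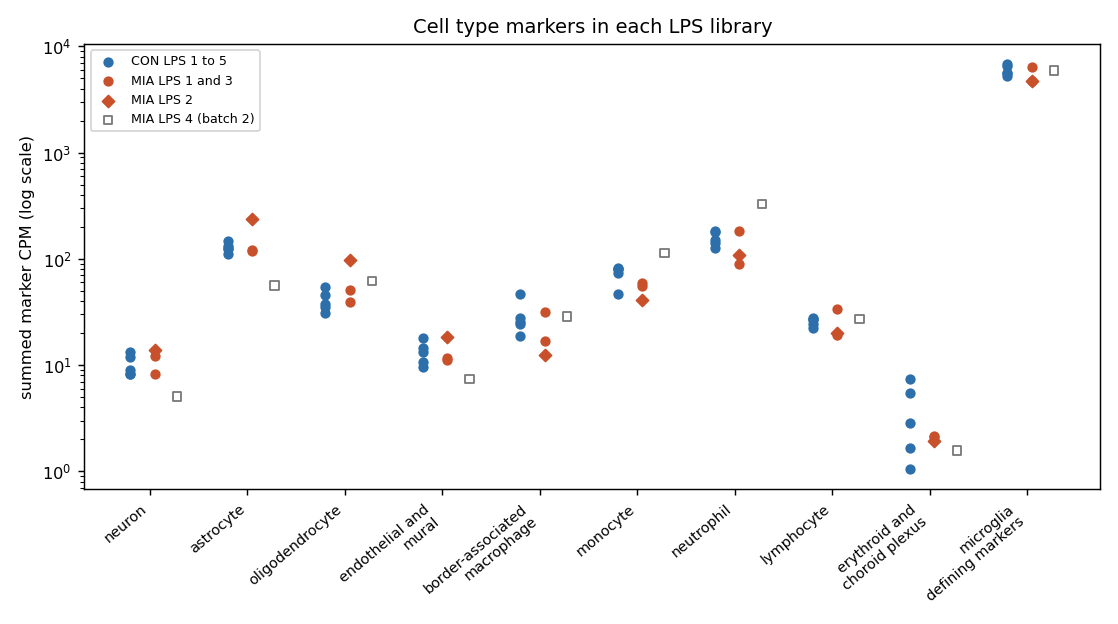
Summed marker CPM per library on a log scale for 9 other cell types and for microglia, with control LPS in blue, MIA LPS in orange (replicate 2 as a diamond) and the batch 2 library as an open square. MIA LPS replicate 2 is highest for astrocyte (239 CPM) and oligodendrocyte (96.5 CPM) markers.

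No gene was called different between MIA and control microglia after LPS. The count was 0 of 14741 tested genes (0%) at a Benjamini-Hochberg adjusted p under 0.05 in edgeR's quasi-likelihood test. The smallest unadjusted p was 8.69e-05 and the smallest adjusted p 0.617. At an unadjusted p under 0.05 there were 825 genes (5.6%), 439 with a higher and 386 with a lower mean in MIA. DESeq2 (895 genes at an unadjusted p under 0.05), limma-voom (796) and limma-voom with library weights (475) also called 0 genes. Without MIA LPS replicate 1, edgeR called 4 genes, all lower in MIA, and without replicate 3 it called 3, all higher. Groups did not overlap for 395 genes (2.68%), 189 higher and 206 lower in MIA. The median standard error (SE) of a log2 difference, where 1 is a 2-fold difference, was 0.26. Each SE used a spread estimated per gene over LPS and saline libraries together, which may differ from that of the LPS libraries alone. For 9334 genes (63.3%) the 95% interval lay within a 2-fold difference either way. This held for 7279 of 7686 genes (94.7%) whose mean log2 CPM over the 20 libraries of the fit was 3 or more. Saline libraries enter that mean, so a gene that was low after LPS could pass. A 2-fold difference was therefore outside the interval for most genes well expressed by that mean. Differences smaller than that lay inside many of these intervals.

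Library medians of LPS-responsive genes lay close together, but most MIA medians lay outside the control range. The genes were chosen on these same LPS libraries, against pooled saline libraries. A change in each library was therefore largely set by the choice, and neither group's own response was measured here. LPS-responsive genes were taken from the mean of both LPS groups against the mean of both saline groups, which called 8257 genes (56%). Of these, 1652 rose and 1844 fell at least 2-fold. Among the genes that rose, the median log2 difference from the saline mean was 1.564 to 1.630 in the control libraries and 1.625, 1.561 and 1.737 in the MIA libraries. MIA replicate 2 thus lay just below the control range and replicate 3 above it. The median MIA minus control difference of the genes that rose was 0.03 (0.09 without MIA 2), and the middle 50% lay between -0.16 and 0.23. Of these genes, 47 (2.85%) had an unadjusted edgeR p under 0.05, against 5.6% of all tested genes. For the genes that rose, this share was not computed in a fit of the LPS libraries alone. No smaller difference is therefore read from it. Among the genes that fell, the library medians were -1.60 to -1.46 in control and -1.43, -1.64 and -1.70 in MIA. MIA replicate 1 thus lay above the control range, and replicates 2 and 3 lay below it. The median difference of the genes that fell was -0.05 (-0.06 without MIA 2), and 228 (12.4%) had an unadjusted p under 0.05. A fit of the 8 LPS libraries alone, in which 2.97% of all tested genes had such a p, gave 4.33% for the 1292 of them that it tested. The genes that fell at least 8-fold (209) had 45 such p-values (21.5%), but the fit of the LPS libraries alone tested 64 of them and gave 2 (3.12%). The genes that rose at least 8-fold (342) had a median difference of -0.04 with all libraries and 0.11 without MIA LPS replicate 2.

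**Figure D2:**
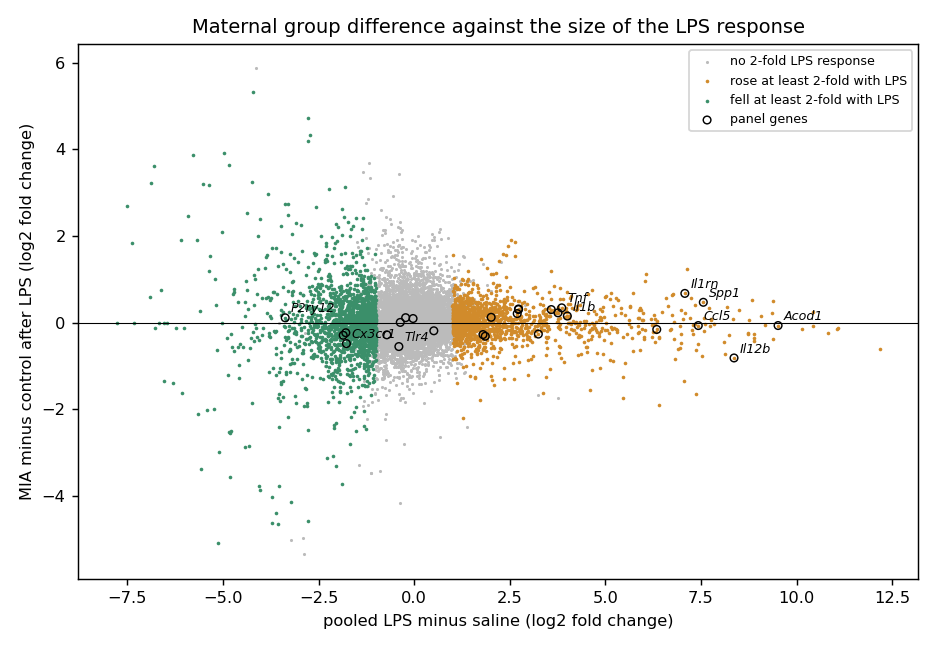
Each tested gene's mean LPS minus saline log2 fold change (horizontal) against its MIA minus control log2 difference after LPS (vertical), with genes that rose at least 2-fold in orange, genes that fell at least 2-fold in green and panel genes circled. Genes that rose centre on a difference of 0.03 and genes that fell on -0.05, and the spread is wider among strongly reduced genes.

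Genes of LPS sensing were near their control levels as a list, and the receptor itself had the lowest value in it. Among 35 measured genes of TLR and NF-kB signalling, 0 were called, the median log2 difference was 0.07 (0.02 without MIA 2) and 21 were above 0, against a median of 0.00 over all tested genes. Tlr4 (chr4:66827584-66930284, GRCm38), the signalling receptor for LPS, was at 89.4, 109.5, 86.7, 88.1 and 85.7 CPM in the control libraries and 76.4, 44.3 and 67.6 CPM in the MIA libraries. Levels of single genes here and below are CPM after TMM scaling. Every MIA library lay below every control library. The log2 difference was -0.55 ± 0.17 (SE) with a 95% interval of -0.89 to -0.21, an unadjusted edgeR p of 0.00277 and an adjusted p of 0.647, so it was not called. Without MIA LPS replicate 2 it was -0.35. In saline libraries the Tlr4 difference was 0.01 ± 0.13, and the difference between the LPS and saline effects was -0.56 ± 0.21 (-0.36 without MIA 2) with an edgeR adjusted p of 1.00. Cd14, the co-receptor that hands LPS to the TLR4 complex, was at 1059, 888, 996, 1124 and 921 CPM in the control libraries and 1436, 881 and 1377 CPM in the MIA libraries. MIA replicates 1 and 3 lay above all control libraries and replicate 2 below them, and the difference was 0.30 ± 0.19 (0.50 without replicate 2). Map3k8, the kinase that links NF-kB1 to ERK, had the list's highest value at 0.41 ± 0.21, and 0.02 without replicate 2, where it stood at 184 CPM against at most 110.4 CPM in the other 7 libraries.

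Most cytokine and chemokine transcripts rose with LPS, and their levels in the 2 maternal groups overlapped. Of 40 listed genes 33 were measured. Of these, 26 rose with LPS over both groups together, against 4227 of all 14741 tested genes, and 0 were called between the groups. Their median difference was 0.15 (0.22 without MIA 2), with 23 above 0. Tnf, a first-line inflammatory cytokine, averaged 36.5 CPM in saline libraries and was at 747, 411, 415, 503 and 344 CPM in the control libraries and 728, 395 and 719 CPM in the MIA libraries after LPS. The difference was 0.34 ± 0.30 (0.58 without MIA 2) with an interval of -0.29 to 0.97. Il1b, which encodes the precursor of interleukin 1 beta, was at 309, 134, 357, 264 and 128 CPM in the control libraries and 390.4, 72.2 and 332 CPM in the MIA libraries. MIA replicate 2 was the lowest of the 8 libraries, and the difference was 0.15 ± 0.49 (0.60 without it). Il6, a cytokine of the acute phase response, was at 39.0, 35.9, 42.4, 43.2 and 19.7 CPM in the control libraries and 53.9, 20.8 and 60.0 CPM in the MIA libraries, a difference of 0.32 ± 0.30 (0.66 without replicate 2).

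The chemokines followed the same arrangement of overlapping groups. Ccl2, which attracts monocytes, was at 177, 69.7, 165, 104 and 41.3 CPM in the control libraries and 146, 53.1 and 165 CPM in the MIA libraries, a difference of 0.12 ± 0.47 (0.48 without MIA 2). Ccl3, an inflammatory chemokine, was at 1060.0, 856, 841, 1199 and 604 CPM in the control libraries and 879, 992 and 1294 CPM in the MIA libraries, a difference of 0.21 ± 0.30 (0.25 without MIA 2). Ccl5 differed by -0.07 ± 0.41 (-0.24 without MIA 2) and Cxcl10, a ligand of CXCR3 induced by interferon, by 0.23 ± 0.29 (0.17 without MIA 2). Il1rn, the antagonist of the interleukin 1 receptor, was at 22.05, 41.8, 44.2, 69.8 and 24.0 CPM in the control libraries and 25.7, 107 and 60.4 CPM in the MIA libraries. Its difference of 0.68 ± 0.46 was 0.10 without MIA replicate 2, the highest of these 8 libraries. Il12b, the shared subunit of interleukins 12 and 23, had the list's lowest value at -0.81 ± 0.65, and MIA replicate 2 was again the extreme at 0.362 CPM against 2.37 to 13.8 CPM elsewhere. Without that library the Il12b difference was -0.27. Il23a had the highest value at 1.77 ± 0.86 (2.05 without MIA 2) but no library was above 2.20 CPM. Il10 was under 2 CPM in every library. Nos2, the inducible nitric oxide synthase, held 67 counts over the 8 libraries and did not pass the filter on low counts. Adjusted edgeR p-values of the 10 measured cytokine and chemokine genes of the panel were 0.937 to 0.996.

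**Figure D3:**
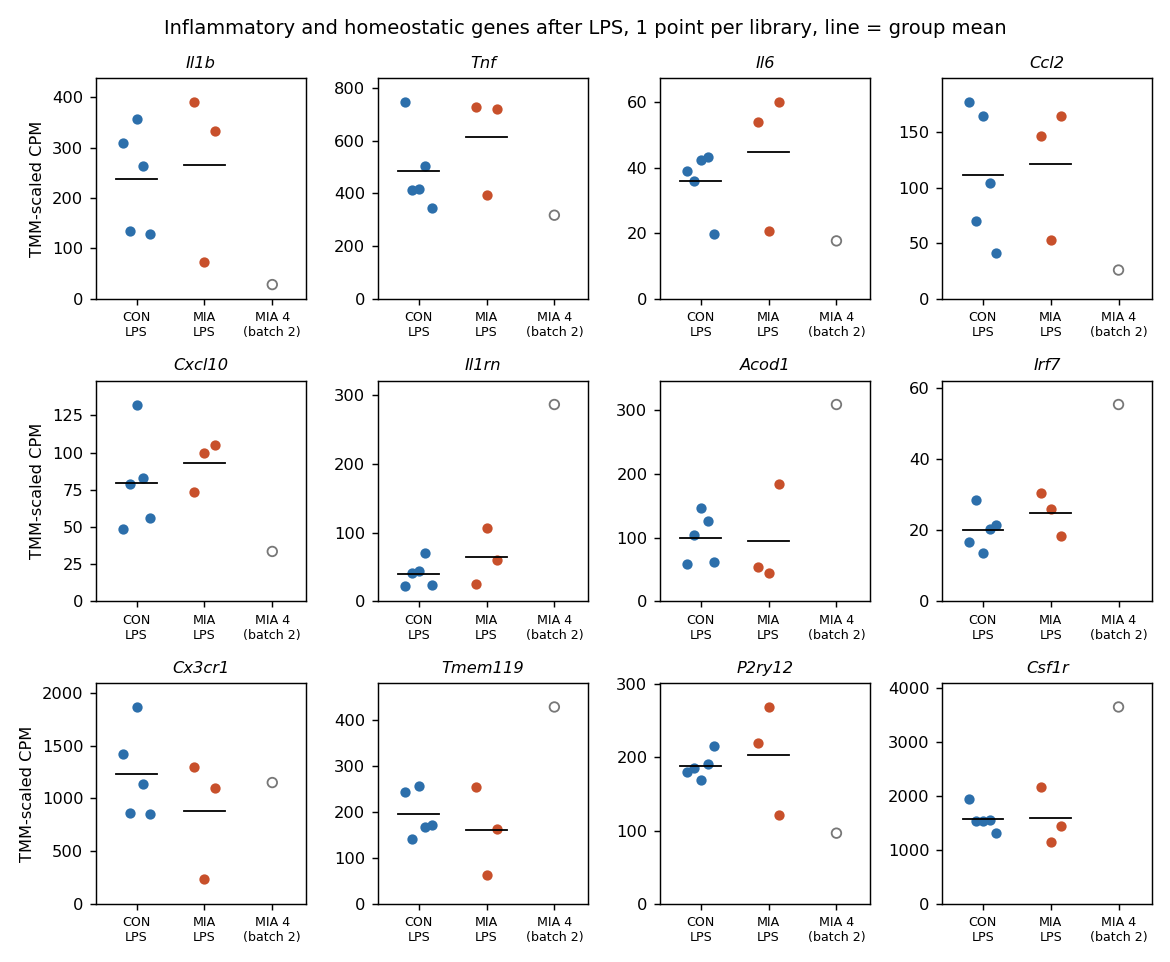
TMM-scaled CPM of 12 inflammatory and homeostatic genes, 1 point per library with the group mean as a line, for control LPS (5), MIA LPS (3) and the batch 2 library (open circle, no mean). Control and MIA points overlap in all 12 genes, and the batch 2 library lies outside the other 8 for genes such as Il1rn (287 CPM) and Csf1r (3656 CPM).

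Interferon-stimulated genes were likewise not separated by maternal group. Of 42 measured genes, 41 rose with LPS over both groups, against 4227 of all 14741 tested genes. Between the groups 0 were called, and the median difference was 0.10 (0.06 without MIA 2) with 28 above 0. Summed levels were 1866 to 2853 CPM in the control libraries and 2192, 2335 and 1605 CPM in the MIA libraries. Irf7, a transcription factor that amplifies type I interferon, was at 16.6, 28.7, 13.5, 20.3 and 21.6 CPM in the control libraries and 30.4, 25.9 and 18.4 CPM in the MIA libraries, a difference of 0.30 ± 0.28 (0.27 without MIA 2). Mx1, an antiviral GTPase, had the list's highest value at 0.81 ± 0.44 (0.56 without MIA 2), and Oas3, an oligoadenylate synthetase, the lowest at -0.48 ± 0.65 (-0.16 without MIA 2). None of the 8 libraries held Oas3 above 3.47 CPM.

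Negative regulators held 1 of the leading genes of the comparison. Zc3h12a (chr4:125118423-125127840, GRCm38), which encodes the RNase regnase-1 that degrades cytokine mRNAs, was at 52.8, 56.0, 52.7, 56.4 and 59.2 CPM in the control libraries and 67.1, 102 and 84.6 CPM in the MIA libraries. All 3 MIA libraries were above all controls, and the controls lay between 52.7 and 59.2 CPM. The difference was 0.61 ± 0.16 with an interval of 0.28 to 0.93 (edgeR unadjusted p 0.000704, adjusted p 0.617), and 0.45 without MIA replicate 2. The saline difference was 0.23 ± 0.14. Over the 25 measured regulators the median was -0.04 (0.10 without MIA 2), 10 were above 0 (16 of 25 without MIA 2) and 0 were called. Irak3, the inhibitory kinase IRAK-M linked to endotoxin tolerance, was at 15.5, 19.2, 26.7, 24.2 and 18.6 CPM in the control libraries and 13.0, 13.2 and 25.7 CPM in the MIA libraries, a difference of -0.26 ± 0.27 (-0.10 without MIA 2). Socs1, an inhibitor of cytokine receptor signalling, had the list's highest value at 0.86 ± 0.39 (0.42 without replicate 2). Cd200r1, the inhibitory receptor for neuronal CD200, had the lowest at -0.86 ± 0.37 (-0.61 without MIA 2).

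Most of the homeostatic signature fell with LPS over both groups together, and no member was called between them. Of 30 measured genes, 26 fell, against 4030 of all 14741 tested genes. Between maternal groups the median difference of the 30 was 0.01 (0.09 without MIA 2) and the interval lay within 2-fold for 26. P2ry12, an ADP receptor on which the cells were sorted, averaged 2008 CPM in saline libraries and was at 179.9, 185, 169, 191 and 215 CPM in the control libraries and 219.8, 269 and 121 CPM in the MIA libraries after LPS. The difference was 0.11 ± 0.18 (-0.14 without MIA 2). Tmem119 was at 244, 139.9, 256, 166 and 172 CPM in the control libraries and 254, 62.7 and 163 CPM in the MIA libraries, a difference of -0.29 ± 0.28 (0.09 without MIA 2). Cx3cr1, the fractalkine receptor, was at 1421, 865, 1869, 1139 and 849 CPM in the control libraries and 1302, 234 and 1104 CPM in the MIA libraries. MIA replicate 2 held the lowest level of these 8 libraries for Tmem119 and Cx3cr1 but the highest for P2ry12. The Cx3cr1 difference of -0.48 ± 0.34 was -0.03 without it. Sall1, the transcription factor of microglial identity, differed by -0.23 ± 0.19 (-0.02 without MIA 2) and Csf1r, the survival receptor for CSF1 and IL-34, by 0.01 ± 0.21 (0.20 without MIA 2). Itgam, which encodes CD11b, differed by 0.10 ± 0.17 (0.21 without MIA 2) and Ptprc, which encodes CD45, by 0.12 ± 0.17 (-0.18 without MIA 2). The extremes of the list were Crybb1, a crystallin enriched in microglia, at 1.10 ± 0.33 (0.83 without MIA 2) and Gpr34, a lysophosphatidylserine receptor, at -0.56 ± 0.30 (-0.20 without MIA 2).

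Effector and clearance genes showed 0 calls in every list. The 19 measured enzymes of itaconate, nitric oxide, oxidative and eicosanoid pathways had a median of -0.07 that was 0.27 without MIA replicate 2. Acod1, which makes itaconate, was at 59.1, 104, 146, 127 and 61.0 CPM in the control libraries and 54.5, 44.6 and 185 CPM in the MIA libraries from 0.137 CPM in saline libraries, a difference of -0.07 ± 0.50 (0.27 without MIA 2). MIA replicate 3 was above and replicates 1 and 2 below all controls. Ptgs2, the inducible cyclooxygenase, differed by 0.54 ± 0.51 (0.92 without MIA 2), and Cybb, the catalytic subunit of the phagocyte NADPH oxidase, by -0.25 ± 0.50 (0.03 without MIA 2). Of 12 measured complement genes, 2 were above 0 (8 of 12 without MIA 2) and the median was -0.15, which turned to 0.16 without replicate 2. C3, the central complement component, was at 20.04, 8.84, 24.9, 10.8 and 6.97 CPM in the control libraries and 14.5, 3.18 and 20.7 CPM in the MIA libraries, a difference of -0.16 ± 0.51 (0.31 without MIA 2). C1qb, a chain of the initiator C1q, differed by 0.12 ± 0.18 (0.32 without MIA 2).

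Disease-associated and lysosomal genes (26 measured, median 0.02, 0.14 without MIA 2) had 0 calls, and 1 of 26 did not overlap between groups, against 2.68% of all tested genes. Spp1, the secreted phosphoprotein osteopontin, averaged 0.994 CPM in saline libraries and was at 157, 166, 182, 169 and 149.5 CPM in the control libraries and 184, 249 and 252 CPM in the MIA libraries after LPS. The lowest MIA value of 184 CPM lay just above the highest control value of 182 CPM. The difference was 0.47 ± 0.45 (0.40 without MIA 2) with an interval of -0.48 to 1.43 and an adjusted p of 0.958 in edgeR. This SE also draws on the saline libraries, where Spp1 was low. Among the LPS libraries alone, the standard deviation was 12.5 CPM in control and 38.5 CPM in MIA. Apoe, the lipid carrier, differed by -0.19 ± 0.36 (0.08 without MIA 2), Lpl, the lipoprotein lipase, by -0.28 ± 0.26 (-0.30 without MIA 2), and Lgals3, the lectin galectin-3, by -0.32 ± 0.52 (0.02 without MIA 2). Phagocytic receptors (19 measured) had a median of -0.06 (0.02 without MIA 2). Their sums were 4008 to 4391 CPM in the control libraries and 3610.1, 3394 and 3617 CPM in the MIA libraries, without overlap, and this was the only biology list with separate sums. After TMM scaling the sums were 3809 to 4310.5 CPM in control and 3966, 3269 and 4081 CPM in MIA, and overlapped. Marco, a scavenger receptor for bacteria, had no count in the saline libraries and was at 41.8, 61.0, 53.8, 59.2 and 28.8 CPM in the control libraries and 33.6, 4.63 and 57.4 CPM in the MIA libraries, a difference of -0.62 ± 0.69 that was -0.10 without MIA replicate 2. Antigen presentation genes (23 measured) had a median of 0.04 (0.22 without MIA 2), which was -0.11 without MIA replicate 1. Cd40 was highest at 0.40 ± 0.46 (0.08 without MIA 2) and H2-Aa lowest at -0.42 ± 0.83 (-0.10 without MIA 2). None of the 8 libraries held H2-Aa above 2.70 CPM.

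In 3 lists every measured member lay above 0, although no member was called. The 24 immediate early and dissociation stress genes, which respond within minutes to stimulation and to tissue handling, had a median difference of 0.36. The median was 0.34 in the saline comparison as well and 0.50 after LPS without MIA replicate 2. Summed levels were 4622 to 7948 CPM in the control libraries and 7459.8, 5527 and 6302 CPM in the MIA libraries, so the groups overlapped. Members ranged from Hspa1b, a heat shock chaperone, at 1.01 ± 0.43 (0.90 without MIA 2) to Egr3 at 0.03 ± 0.34 (0.26 without MIA 2), and 4 of 24 had an unadjusted p under 0.05, against 5.6% of all tested genes. Ribosomal protein genes (26) had a median of 0.15 (0.20 without MIA 2), from Rps6 at 0.26 ± 0.16 (0.35 without MIA 2) to Rpl5 at 0.02 ± 0.19 (-0.09 without MIA 2). Glycolysis genes (19) had a median of 0.13 (0.32 without MIA 2), from Pfkp at 0.63 ± 0.39 (0.52 without MIA 2) to Hk3 at 0.01 ± 0.28 (0.27 without MIA 2). Members of a list share the same 8 libraries, and the counts above 0 carry no test. Leaving out 1 LPS library at a time gave list medians from 0.16 to 0.58 (immediate early), 0.08 to 0.20 (ribosomal) and 0.01 to 0.32 (glycolysis). Members above 0 then numbered as few as 20 of 24 (without MIA replicate 1), 24 of 26 (without MIA replicate 1 or 3) and 11 of 19 (without MIA replicate 3). Under RLE or upper quartile scaling, or with ribosomal RNA genes left out, all members of the 3 lists stayed above 0. As CPM of the library total, however, the sums overlapped. Ribosomal protein sums were 7955 to 9836 CPM in the control libraries and 9727, 9062 and 9375 CPM in the MIA libraries. Glycolysis sums were 2241 to 2694 CPM in the control libraries and 2471, 2555 and 2846 CPM in the MIA libraries.

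The remaining lists centred near 0 in the main fit. Of the 30 oxidative phosphorylation genes, 23 were above 0, 28 without MIA 2 and 13 without MIA replicate 3. Of the 19 microglial factors acting on synapses and neurons, 10 were above 0, and 17 without MIA 2. Of the 18 lists, 13 had a median that took the other sign when 1 LPS library or another was left out. Medians were 0.07 (0.15 without MIA 2) for oxidative phosphorylation (30 genes), 0.08 (0.10 without MIA 2) for the cell cycle (16), 0.01 (-0.03 without MIA 2) for chromatin modifiers (31), 0.06 (-0.04 without MIA 2) for glucocorticoid-responsive genes (15) and 0.02 (0.22 without MIA 2) for microglial factors acting on synapses and neurons (19). Extremes were Sdhc at 0.45 ± 0.25 (0.64 without MIA 2) and Cyc1 at -0.15 ± 0.20 (0.09 without MIA 2) among respiratory chain genes. In the cell cycle they were Top2a at 0.57 ± 0.48 (0.08 without MIA 2) and Aurkb at -0.94 ± 1.02 (-0.50 without MIA 2). None of the 8 libraries held Top2a above 3.47 CPM or Aurkb above 1.01 CPM. Among chromatin modifiers, Tet1, which oxidises methylcytosine, was at 0.60 ± 0.45 (-0.93 without MIA replicate 2) and Ezh2, the Polycomb methyltransferase, at -0.47 ± 0.25 (-0.26 without MIA 2). Levels of Tet1 were low, at 0.321 to 1.14 CPM in the control libraries and 0.423, 2.75 and 0.396 CPM in the MIA libraries. Mt2, a metallothionein, was at 33.0, 94.5, 35.1, 78.5 and 116 CPM in the control libraries and 32.4, 334 and 138 CPM in the MIA libraries. Its difference of 1.23 ± 0.52 was 0.26 without replicate 2. Cd163, a scavenger receptor of border macrophages, was at -1.81 ± 1.13 (-1.57 without MIA 2), with 3.43 CPM in control LPS replicate 3 and at most 0.721 CPM in the other 7 libraries. Vegfa, the endothelial growth factor, was at 1.22 ± 0.57 (1.46 without MIA 2) with no library above 1.39 CPM.

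**Figure D4:**
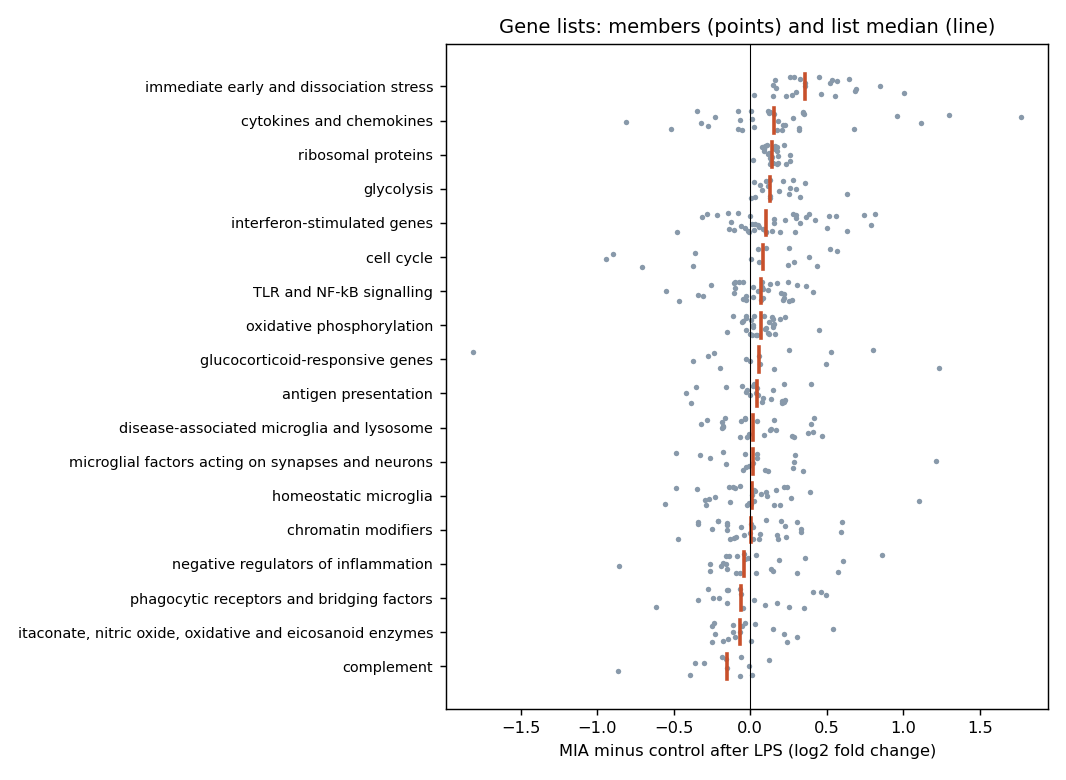
MIA minus control log2 differences after LPS (horizontal) of the measured members of 18 gene lists (points, spread vertically for legibility) with each list's median as a line. Medians run from -0.15 (complement) to 0.36 (immediate early and dissociation stress), and no member was called.

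The well-expressed genes with the smallest p-values, 6 in each direction, all shared an adjusted edgeR p of 0.617 and were not called. On the lower side, Platr25 was at 11.6, 15.9, 13.5, 18.6 and 15.2 CPM in the control libraries and 8.79, 6.73 and 8.72 CPM in the MIA libraries, a difference of -0.89 ± 0.19 with an unadjusted p of 8.69e-05. The groups did not overlap. Rab39, a small GTPase of endosomal traffic, was at 17.2, 22.2, 19.6, 20.04 and 17.5 CPM in the control libraries and 15.5, 11.6 and 10.3 CPM in the MIA libraries, a difference of -0.64 ± 0.16. Cdk19, a kinase of the Mediator complex, was at 24.6, 22.7, 22.1, 20.9 and 19.8 CPM in the control libraries and 18.5, 14.3 and 11.5 CPM in the MIA libraries, a difference of -0.58 ± 0.16. Nnt, the mitochondrial nicotinamide nucleotide transhydrogenase, was at 11.8, 11.8, 10.6, 8.98 and 9.86 CPM in the control libraries and 3.89, 7.6 and 6.14 CPM in the MIA libraries, a difference of -0.85 ± 0.23. Groups were also separate for Rab39, Cdk19 and Nnt. Zfp397, a zinc finger protein, differed by -0.50 ± 0.14 without overlap, and Cep164, a centriole appendage protein, by -0.80 ± 0.22 with overlap. Without MIA replicate 2 these 6 differences were -0.77, -0.59, -0.56, -1.07, -0.52 and -0.79 in the order named.

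On the higher side, Gem, a GTPase that inhibits voltage-gated calcium channels, was at 32.7, 23.8, 37.1, 30.8 and 19.1 CPM in the control libraries and 52.9, 56.1 and 48.3 CPM in the MIA libraries. The groups did not overlap, and the difference was 0.87 ± 0.24 (0.82 without MIA replicate 2). Tent5c, a poly(A) polymerase, was at 38.8, 40.9, 37.0, 38.9 and 27.0 CPM in the control libraries and 70.3, 55.0 and 38.5 CPM in the MIA libraries, a difference of 0.58 ± 0.16 (0.57 without replicate 2). The 3 other genes beside Zc3h12a rested on MIA replicate 2. Fzd5, a Wnt receptor, was at 6.23, 7.09, 6.02, 9.05 and 7.45 CPM in the control libraries and 8.45, 30.6 and 9.31 CPM in the MIA libraries, a difference of 1.17 ± 0.29 that was 0.31 without that library. Tef, a PAR bZIP transcription factor of circadian output, was at 7.53, 8.72, 5.92, 9.72 and 7.13 CPM in the control libraries and 11.8, 29.0 and 8.19 CPM in the MIA libraries, a difference of 1.06 ± 0.27 (0.35 without it). Gatm, the first enzyme of creatine synthesis, was at 31.9, 38.5, 33.7, 36.8 and 36.9 CPM in the control libraries and 46.0, 85.1 and 38.2 CPM in the MIA libraries, a difference of 0.67 ± 0.18 (0.24 without it). The same library held the highest astrocyte and oligodendrocyte marker sums, whose part in these 3 values was not tested.

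**Figure D5:**
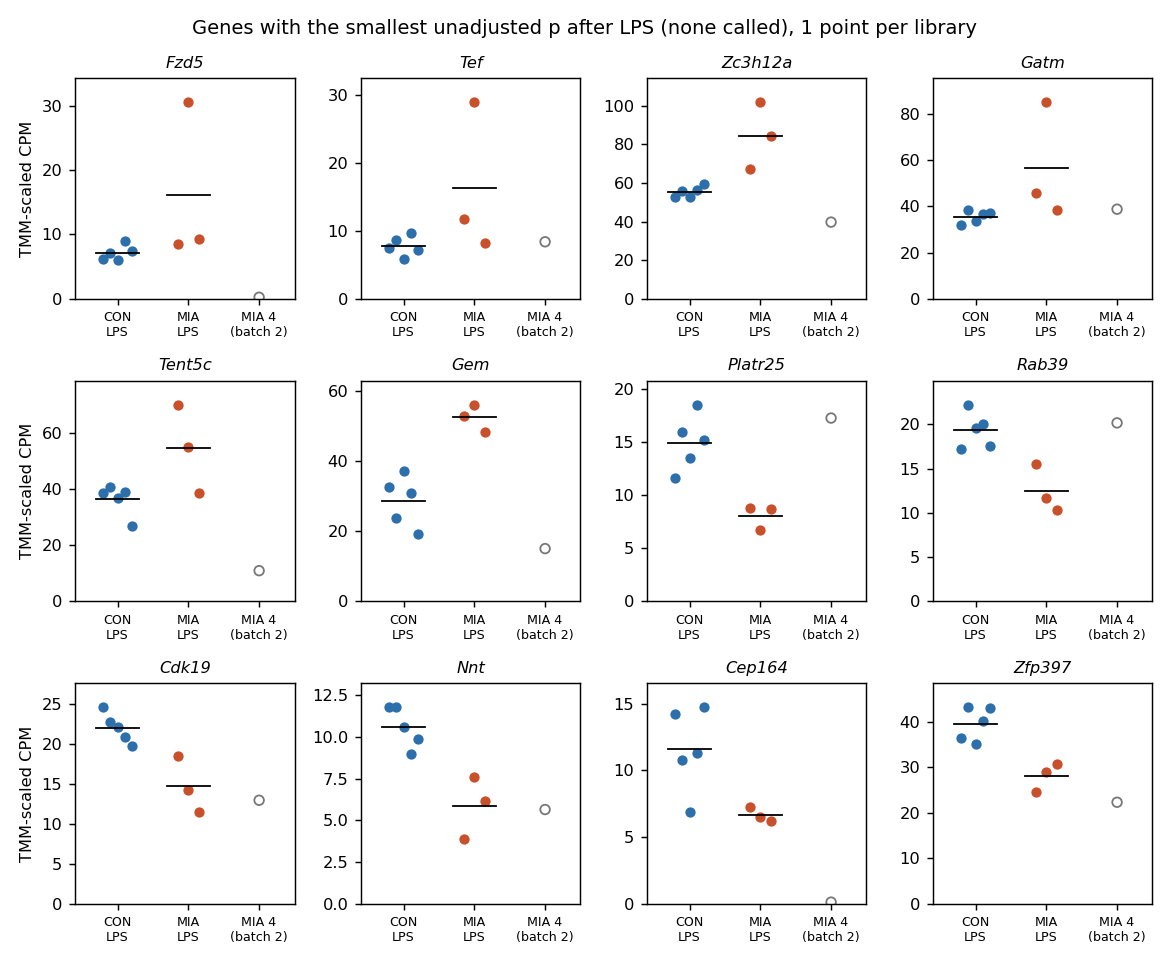
TMM-scaled CPM of the 12 well-expressed genes with the smallest unadjusted p, 1 point per library with group means as lines and the batch 2 library as an open circle. Control and MIA points are separate for Zc3h12a, Gem, Platr25, Rab39, Cdk19, Nnt and Zfp397, while Fzd5, Tef and Gatm each have 1 high MIA library.

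The difference by maternal group was not shown to depend on the LPS challenge. After saline, edgeR called 0 of 14741 genes, with 415 at an unadjusted p under 0.05 and a smallest adjusted p of 0.698, while DESeq2 called 6. The test of the difference between the LPS and saline effects called 0 genes in edgeR, with 491 at an unadjusted p under 0.05. It called 2 without MIA LPS replicate 1, and limma-voom called 1. For Platr25 this difference of effects was -1.04 ± 0.24 (-0.92 without MIA 2), for Nnt -0.85 ± 0.29 (-1.07 without MIA 2), for Gem 0.60 ± 0.31 (0.55 without MIA 2) and for Zc3h12a 0.38 ± 0.21 (0.23 without MIA 2). Inflammatory genes gave 0.28 ± 0.40 (0.52 without MIA 2) for Tnf, 0.36 ± 0.65 (0.81 without MIA 2) for Il1b, 0.46 ± 0.42 (0.81 without MIA 2) for Il6 and -0.01 ± 0.39 (0.04 without MIA 2) for Ccl3. Homeostatic genes gave 0.06 ± 0.24 (-0.19 without MIA 2) for P2ry12, -0.08 ± 0.36 (0.31 without MIA 2) for Tmem119 and -0.53 ± 0.44 (-0.08 without MIA 2) for Cx3cr1.

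The batch 2 MIA LPS library was unlike the other 8, and batch and library cannot be told apart for it. It held counts for 12264 genes against 17995 to 19243 in the 8 batch 1 libraries, and 3350 tested genes (22.7%) were at 0 against 164 to 296. Its ribosomal RNA share was 61.5%. Marco stood at 1228 CPM against at most 61.0 CPM in batch 1, Ccl5 at 1562 CPM against at most 265 CPM, and Cybb at 542 CPM against at most 244 CPM. Other inflammatory genes were lower than in all 8 batch 1 LPS libraries, with Il1b at 28.2, Ccl2 at 25.9 and Tnf at 317 CPM. Tlr4 was at 21.8 CPM and Spp1 at 44.9 CPM, also below all 8. Monocyte markers summed to 114 CPM and neutrophil markers to 330.0 CPM in it, above all 8 libraries, and astrocyte markers to 56.3 CPM, below all 8. Of the 189 genes higher in MIA without overlap in batch 1, 67 were above all controls in the batch 2 library and 86 below them. Of the 206 lower genes, 153 were below all controls and 36 above. Over all tested genes, 29.8% were above and 48.1% below all controls in that library. Zc3h12a was at 39.7 CPM and Gem at 15.0 CPM, below all controls, while Platr25 at 17.3 CPM and Rab39 at 20.2 CPM were within the control range. Cdk19 at 13.0 CPM, Nnt at 5.64 CPM, Zfp397 at 22.3 CPM and Cep164 at 0.12 CPM were below all controls, the side on which their batch 1 MIA means lay.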

How the data were processed

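RNA of sorted striatal microglia was sequenced with a modified Smart-Seq2 protocol from 5 ng of RNA with 9 PCR cycles, per the labels' protocols. The authors deposited 1 table of unnormalized estimated counts, with 55487 gene identifiers and 21 libraries. The submitters' processing notes name the tools RSEM, STAR and DESeq2 but no version, role or order. Genome build, annotation and use of strand are not stated in the labels or the table, so overlapping genes and close gene copies are uncertain. Of all values, 6.27% were not whole, and all were rounded. Symbols and coordinates came from GENCODE M21 (GRCm38), which matched 55227 identifiers with the version left off.

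Groups and batch came from the labels. edgeR 4.0.16 (R 4.3.3) was run with TMM scaling, a robust quasi-likelihood fit, edgeR's expression filter (count 10, total 15), on 20 libraries with 1 mean per group and treatment plus batch (15 residual degrees of freedom). The batch term took up the only batch 2 library. A call was a Benjamini-Hochberg adjusted p under 0.05. SEs were back-calculated from the F statistic, and intervals are 95%. Gene values are TMM-scaled CPM, and list sums are CPM of the library total. LPS-responsive genes were called on the mean of both LPS groups, weighted by library number, against that of both saline groups, and changed at least 2-fold. DESeq2 1.42.0 and limma-voom (limma 3.58.1) were alternatives. The fit was also run on counts simulated from its own means and spread. Such a run cannot show how well those estimates describe these libraries.

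The comparison, the 18 biology and 9 cell type lists and the gene panel were chosen with earlier results of these data known. Named genes were the panel, the highest and lowest measured member of each biology list and, as no gene was called, the 6 genes with the smallest p in each direction among protein-coding genes with a mean log2 CPM of 3 or more, leaving out Gm-numbered, Rik and mitochondrial genes. Values of 1 panel gene are not reported here.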

Additional observations from a re-analysis of the deposited data

Results flagged for a closer look

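Among the 5 control LPS libraries, 4 of 71 named genes had 1 library far from the other 4 by Dixon's test at the 95% level, a test that chance meets in about 1 of 20 groups. Tlr4 was at 109.5 CPM in control LPS replicate 2 against 85.7 to 89.4 CPM in the others. Tent5c was at 27.0 CPM in control LPS replicate 5 against 37.0 to 40.9 CPM. Ezh2 was at 3.37 CPM in the same library against 4.45 to 4.82 CPM. Cd163 was at 3.43 CPM in control LPS replicate 3 against 0 to 0.721 CPM.

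In the main fit the batch term took up the batch 2 MIA LPS library, which counted as a replicate in an alternative without that term. This library lay above all 5 control LPS libraries for 11 of 27 measured panel genes. Looking at panel genes alone was chosen after seeing the data. Over all tested genes the share above all controls was 29.8%. Inflammatory genes among the 11 were Ccl5 at 1562 CPM (controls 81.9 to 265 CPM), Il1rn at 287 CPM, Acod1 at 309 CPM, Irf7 at 55.5 CPM, Irak3 at 42.6 CPM and the complement gene C3 at 29.65 CPM. Genes of microglial identity among them were Csf1r at 3656 CPM (controls 1323 to 1950 CPM), Tmem119 at 428 CPM, Sall1 at 132.5 CPM and Itgam at 544 CPM. Lpl, also among the 11, was at 11.2 CPM. Other panel genes of microglia did not lie above the controls. P2ry12 at 96.5 CPM (controls 169 to 215 CPM) and Ptprc at 131 CPM (controls 207 to 312 CPM) were below all of them. Cx3cr1 at 1151 CPM was within the control range. Batch and library cannot be told apart for these values.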

How the results depend on the processing

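The count of 0 genes called after LPS held in 31 of 33 alternatives, with 407 to 1674 genes at an unadjusted p under 0.05. Leaving out 1 library at a time gave 0 to 4 calls after LPS, 0 to 3 higher and 0 to 4 lower. Without MIA LPS replicate 1, Card6 (-1.18), Slc38a9 (-1.04), Lpar5 (-1.75) and Gm15801 were called lower. Without MIA LPS replicate 3, Rhobtb1 (1.25), Tef (1.38) and Gas2l3 (2.08) were called higher. After saline, 6 genes were called by DESeq2 and, in an alternative chosen after seeing the data, 6 by DESeq2 without MIA LPS replicate 2. For the difference of effects, limma-voom called 1 gene, DESeq2 without MIA LPS replicate 2 called 1, and leaving out 1 library gave 0 to 2. The median MIA minus control difference ran from -0.0322 to 0.0921 for genes that rose with LPS and from -0.138 to 0.0126 for genes that fell when 1 library was left out. With the replicate block, 0 genes were called. Libraries sharing a replicate number had correlated deviations of 0.122, 0.222 and 0.0987, and 2 of 3 MIA libraries correlated best with their own number. The labels state no pairing by replicate number, so the numbers were not taken as pairs in the main fit. Whether such libraries share an origin was not tested. Across 71 named genes and 2337 combinations of gene and alternative, 1 was called (Tef), 144 moved by more than the SE, and 106, in 30 genes, changed sign. The cause was not tested.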
